A study of Mus musculus with 36 samples.

Results

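The measurements described here concern 5 mature miRNAs that are usually studied together, mmu-miR-199a-5p, mmu-miR-199a-3p, mmu-miR-199b-5p, mmu-miR-214-3p and mmu-miR-214-5p, in the kidneys of newborn mice with and without polycystic kidney disease. They were taken by name from a table of 1915 mature miRNAs counted in 36 small-RNA libraries, and all 5 were present in every library. The mice were C57BL/6 and belonged to one of 2 conditional models, Pkd1f/f or Pkd2f/f. The knockout (KO) groups, Pkd1f/f:HoxB7-Cre and Pkd2f/f:HoxB7-Cre, carried a Cre that acts in the ureteric bud lineage and hence in the collecting duct, so stroma and vessels, which do not come from the ureteric bud, are outside its reach. The control groups (WT) were Pkd1f/f or Pkd2f/f mice without Cre, so both genotypes of a model carried the floxed alleles. Whole kidneys were taken on postnatal days P1, P3 and P7, which gave 12 groups of 3 libraries. The labels do not say that the 3 libraries of a group came from separate animals, and p-values measure the spread between these libraries. Transcripts of Pkd1 and Pkd2 were not analysed here, so the deletion itself was not checked. The study asked which miRNAs accompany cyst formation in both models.

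miR-199 and miR-214 are best known from mesenchyme: fibroblasts, pericytes, smooth muscle precursors and skeletal progenitors. The miR-199a-2 and miR-214 hairpins lie in one long non-coding RNA, Dnm3os, which is under the control of the mesenchymal factor Twist1, and both families have been linked to fibrosis of the kidney and other organs. A miRNA hairpin is cut into a 5′ arm (5p) and a 3′ arm (3p). Either arm can be loaded into Argonaute, and the seed at the 5′ end of the loaded arm chooses the target mRNAs.

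The sequences are shown first because 2 features of them bear on how the counts can be read: which members share a seed, and which cannot be told apart by sequencing. They were taken from RefSeq (GRCm38.p6), 5′ to 3′, with the seed (bases 2 to 8) in capitals.
mmu-miR-199a-5p: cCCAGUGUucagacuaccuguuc
mmu-miR-199a-3p: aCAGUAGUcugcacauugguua
mmu-miR-214-3p: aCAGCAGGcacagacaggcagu
mmu-miR-214-5p: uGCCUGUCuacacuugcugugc
The printed seeds all differ, so these 4 miRNAs are not members of one seed family. Among table entries with a RefSeq sequence, the only one that shared a seed with miR-214-3p was miR-761, which had 0 reads, and the only one that shared a seed with miR-199a-3p was miR-199b-3p, whose mature sequence is the same along its whole length. By name, 4 of the 5 members matched a RefSeq entry, and miR-199b-5p did not. Its seed was therefore not compared with that of miR-199a-5p, and whether reads of these 2 can be told apart was not checked.

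In GRCm38, which is the mm10 build the submitters named, Mir199a-2 lies on chr1:162217814-162217923 and Mir214 on chr1:162223368-162223477, both on the plus strand and 5444 bases apart. Both hairpins overlap an exon of Dnm3os (chr1:162217623-162225550, plus strand). They lie opposite an intron of the dynamin gene Dnm3, which is read from the minus strand. The second copy, Mir199a-1, is on chr9:21496495-21496564 (minus strand), opposite an intron of Dnm2, and Mir199b is on chr2:32318460-32318569 (plus strand), opposite an intron of Dnm1. The 3 hairpins with a sequence are shown with both mature arms in capitals, since the comparisons of arms below depend on them.
Mir199a-2: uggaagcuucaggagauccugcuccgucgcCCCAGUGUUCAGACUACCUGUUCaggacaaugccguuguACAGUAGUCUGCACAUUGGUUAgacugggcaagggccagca
Mir199a-1: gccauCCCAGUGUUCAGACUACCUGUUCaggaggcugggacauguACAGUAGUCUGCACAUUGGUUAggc
Mir214: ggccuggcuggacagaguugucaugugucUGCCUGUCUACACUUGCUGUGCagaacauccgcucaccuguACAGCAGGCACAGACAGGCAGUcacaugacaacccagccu
The capitals of Mir199a-1 and Mir199a-2 are identical, so a read of either arm of miR-199a cannot be assigned to chromosome 1 or chromosome 9. The table counts such reads under both precursors: miR-199a-3p had 4270925 reads under mir-199a-2 and 4227838 under mir-199a-1. The miR-199b-3p entry had 4227843 reads, equalled the mir-199a-1 entry in 32 of the 36 libraries, and never differed from it by more than 2 reads. These are therefore the same reads listed under several names, and only the entry with the higher total was used for each member.

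Library totals ran from 12569939 to 32663566 reads (median 24008082). The reads of miR-10a-5p plus those of miR-10b-5p made up between 31.4% and 81.0% of the reads of a library (median 57.4%), and the 5 members together between 0.208% and 1.35% (median 0.676%). Levels are given in CPM, reads relative to a library total scaled by the TMM method, which reduces the effect of a few dominant miRNAs on all others. All 7 epithelial and all 16 mesenchyme-linked marker miRNAs had reads in every library, so markers of kidney epithelium and stroma were present throughout. In 1 library, Pkd1 P1 WT replicate 1, the 4 skeletal and cardiac muscle miRNAs summed to 1747 CPM against 15.3 to 162 in the other libraries, and in Pkd2 P1 WT replicate 3 the 2 arms of the liver miRNA miR-122 summed to 289 CPM against 0.0682 to 46.5.

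miR-199a-3p was the most abundant member, with a mean of 4315 CPM over the 36 libraries and the 23rd place among all miRNAs by total reads. miR-199a-5p followed at 1134 CPM, miR-214-3p at 357 CPM, miR-199b-5p at 144 CPM and miR-214-5p at 66.0 CPM. The smallest count of any member in any library was 289 reads, of miR-214-5p, so none of the members was near the limit of counting. By reads, miR-199a-5p was 7.97 times miR-199b-5p in the geometric mean, and this ratio stayed between 5.70 and 10.05 in all 36 libraries. The 5p arm of miR-199a was 0.262 times its 3p arm, with a range of 0.124 to 0.609. Reads of miR-199a-3p can also come from Mir199b, so this is not a ratio within 1 hairpin. miR-214-5p was 0.186 times miR-214-3p, with a range of 0.133 to 0.236. Mature miRNAs differ little in length, but ligation and amplification favour some sequences over others, so a ratio between different miRNAs is a ratio of reads and not of molecules.

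Across the 12 groups the levels spanned a narrow range. The highest group mean was 2.16 times the lowest for miR-214-3p, 1.83 times for miR-199b-5p, 1.81 times for miR-199a-5p, 1.64 times for miR-214-5p and 1.44 times for miR-199a-3p. miR-199a-5p stood highest in Pkd1 P7 KO, at 1577 ± 73.0 CPM (SD, n = 3), and lowest in Pkd2 P1 KO, at 869 ± 50.4 CPM. miR-199b-5p had its highest mean in the same group, 202 ± 17.6 CPM, and its lowest in Pkd2 P1 WT, 110 ± 11.7 CPM. miR-214-3p ran in another order, from 472 ± 3.71 CPM in Pkd2 P1 WT down to 219 ± 23.4 CPM in Pkd1 P7 WT. miR-199a-3p was highest in Pkd2 P7 WT (5011 ± 883 CPM) and lowest in Pkd1 P1 WT (3479 ± 710 CPM), and miR-214-5p was highest in Pkd1 P3 WT (79.9 ± 12.1 CPM) and lowest in Pkd1 P7 WT (48.8 ± 8.10 CPM). When the groups were ordered by mean level, neighbours differed by more than the larger of their SDs in 1 of 11 steps for miR-199a-5p and 1 of 11 for miR-214-3p, and in 0 of 11 for the other 3. Any batch shared by the libraries of one model cannot be told apart from the model.

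**Figure D1:**
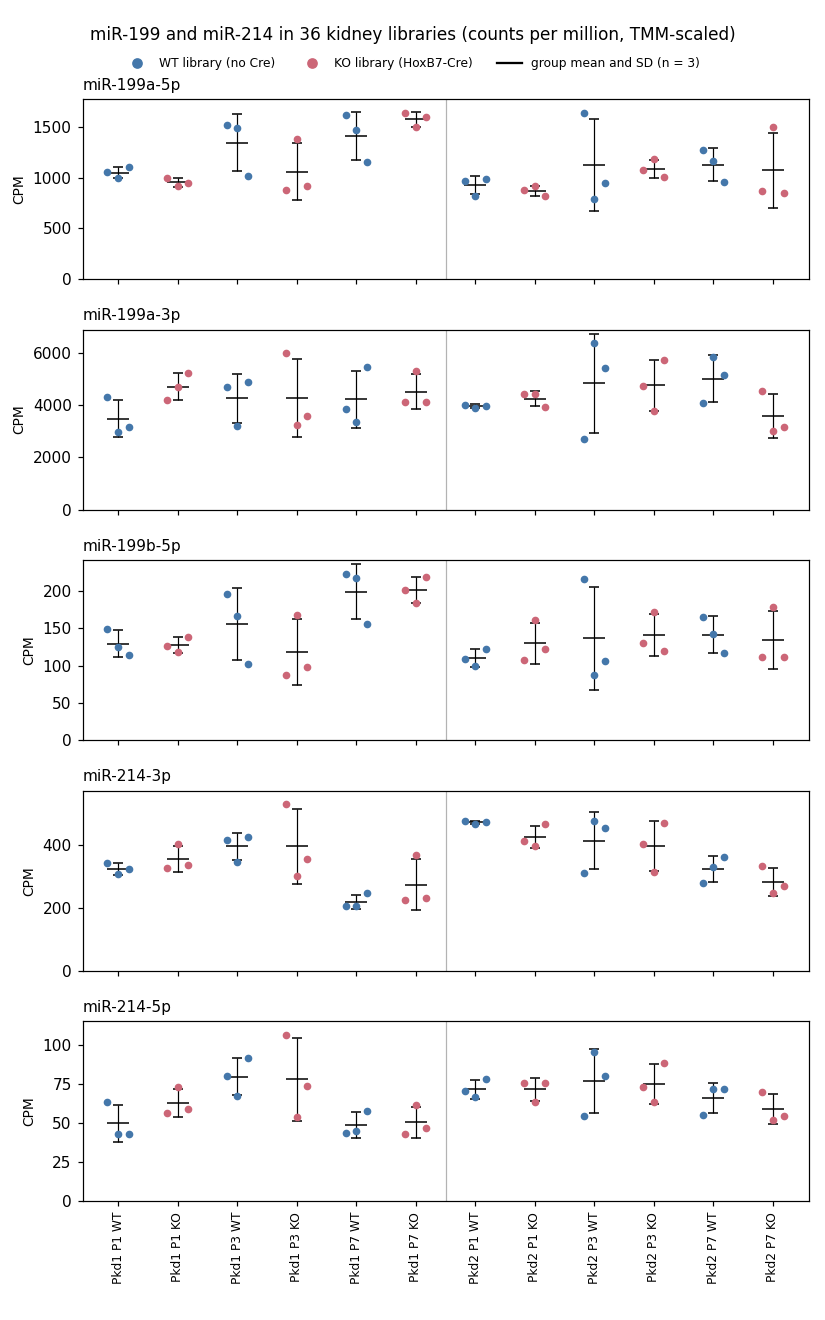
Level of each member in CPM (linear axis from 0) in the 36 libraries; each point is 1 library, WT in blue and KO in red, with the mean and SD of each group of 3 in black. WT and KO points overlap in nearly every pair of groups, miR-214-3p is lowest at P7 in the Pkd1 model, and the libraries of the P3 groups spread widely.

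None of the 5 miRNAs was called as changed with genotype at any age in either model. In the 6 comparisons of KO with WT, 0 of 30 values passed an adjusted p of 0.05 by edgeR's quasi-likelihood test, 0 had an unadjusted p under 0.05, and DESeq2 also called 0. Of all miRNAs, 59, 64 and 72 of 706 had an unadjusted p under 0.05 in Pkd1 at P1, P3 and P7. In Pkd2 these were 41, 11 and 216 of 746. The log2 fold changes of the members ran from -0.41 to 0.49, with 15 of 30 above 0, and their smallest adjusted p was 0.315. Of all miRNAs tested, 0% passed at P1 and at P3 in either model, 0.425% passed in Pkd1 at P7 and 12.6% in Pkd2 at P7, so for Pkd2 at P7 the members were among the large majority that were not called. The 95% confidence intervals covered changes between 0.513-fold and 2.04-fold, and 29 of the 30 intervals lay within a 2-fold change in either direction.

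At P7, miR-199a-3p in Pkd1 mice measured 3836, 3350 and 5448 CPM in WT libraries and 4126, 5292 and 4108 CPM in KO libraries. The ranges overlapped, and the log2 fold change was 0.16 with an interval of -0.37 to 0.70. In Pkd2 mice it measured 4074, 5828 and 5130 CPM in WT and 4549, 3015 and 3167 CPM in KO, so 2 KO libraries lay below every WT library and the third lay among them. That difference, a log2 fold change of -0.41 (SE 0.26, interval -0.96 to 0.13), did not pass the test (adjusted p = 0.315).

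miR-214-3p at P7 measured 206, 205 and 246 CPM in Pkd1 WT and 225, 368 and 230 CPM in Pkd1 KO, where 1 KO library was high and the other 2 lay within the WT range. Its log2 fold change was 0.38 (SE 0.21, interval -0.07 to 0.83, adjusted p = 0.592). In Pkd2 it measured 280, 331 and 362 CPM in WT and 333, 247 and 270 CPM in KO, for a log2 fold change of -0.13 (interval -0.56 to 0.30). For the remaining members at P7 the log2 fold changes were 0.22 and -0.01 for miR-199a-5p, 0.09 and -0.02 for miR-199b-5p, and 0.11 and -0.10 for miR-214-5p, in Pkd1 and Pkd2.

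At the earlier ages the largest value was that of miR-199a-3p in Pkd1 at P1, with 4293, 2986 and 3159 CPM in WT and 4206, 4698 and 5209 CPM in KO. One WT library lay above the lowest KO library, and the log2 fold change of 0.49 (SE 0.25) had an adjusted p of 0.572. In Pkd1 at P3 the 2 5p members of the miR-199 family were lowest, at -0.34 for miR-199a-5p and -0.39 for miR-199b-5p on the log2 scale, with intervals that reached 0.09 and 0.16.

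Groups without overlap were also rare. Of the 30 comparisons of a member between KO and WT, 1 had no overlap: miR-214-3p in Pkd2 at P1, with 476, 468 and 472 CPM in WT and 411, 398 and 466 CPM in KO, a log2 fold change of only -0.10 (adjusted p = 0.982). The share of all miRNAs whose groups did not overlap was 13.4% there. It was 4.42% and 25.6% in Pkd2 at P3 and P7, and 18.1%, 12.3% and 16.4% in Pkd1 at P1, P3 and P7, where no member was without overlap.

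**Figure D2:**
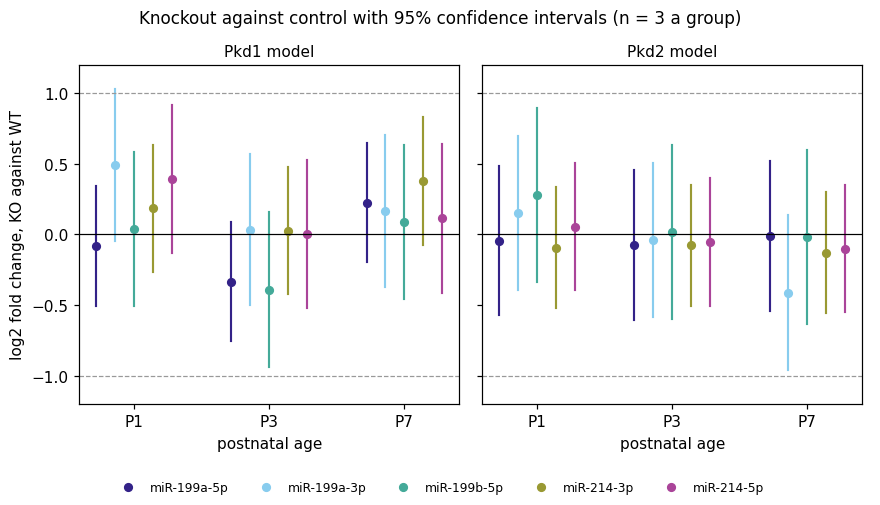
Log2 fold change of KO against WT for the 5 members at P1, P3 and P7 in the Pkd1 (left) and Pkd2 (right) models, from edgeR fits with 3 libraries a group; points are estimates, vertical lines 95% confidence intervals, and dashed lines a 2-fold change. Every interval includes 0, and 1 interval, of miR-199a-3p in Pkd1 at P1, passes the 2-fold line.

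The genotype effect was also compared between ages and between models. The difference of the KO effect between P7 and P1 was not called for any member in either model, with values of -0.33 to 0.31 on the log2 scale in Pkd1 and -0.57 to 0.03 in Pkd2, against 0.142% and 0.536% of all miRNAs called. The difference of the KO effect between the models was called for 0 of 5 members at P1, P3 and P7, while 0%, 0% and 0.387% of all miRNAs were called. At P7 all 5 differences were above 0, from 0.10 to 0.58 on the log2 scale, the highest for miR-199a-3p with an interval of -0.18 to 1.35 and an adjusted p of 0.505. All of these unadjusted p-values of members were above 0.05. Of all miRNAs, 85 of 706 in Pkd1 and 126 of 746 in Pkd2 were under it between ages. Between models these were 49, 39 and 93 of 775 at P1, P3 and P7.

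Most of the other miRNAs linked to mesenchyme were not called with genotype at P7. The share of all miRNAs called then was 0.425% in Pkd1 and 12.6% in Pkd2. Of the 16 in the list, 1 was called as higher in Pkd1 KO and 4 in Pkd2 KO, with 0 lower, and the median of the list was 0.12 and 0.31 on the log2 scale against 0.01 and 0.02 for all miRNAs tested. Since these counts were small, the miRNAs are named here after their values were seen. In Pkd1 the single call was miR-21a-5p, a miRNA linked to injury and fibrosis that is made by epithelial cells as well as by mesenchyme, at 1.45 (SE 0.17, adjusted p = 0.00017). In Pkd2 miR-21a-5p rose by 1.11 (SE 0.25, adjusted p = 0.0147), and it was joined by miR-29a-3p at 1.31, miR-29b-3p at 1.10 and miR-409-3p at 1.55. The miR-29 family targets collagen mRNAs, and miR-409-3p comes from the imprinted Dlk1-Dio3 cluster. At P1 and P3, 0 of 16 were called in either model.

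Some epithelial markers differed with genotype at P7, when 0.425% of all miRNAs were called in Pkd1 and 12.6% in Pkd2. In Pkd2, 4 of 7 epithelial miRNAs were called, also named after their values were seen: miR-141-3p (0.82, adjusted p = 0.0163) and miR-200c-3p (0.87, adjusted p = 0.0175) were higher in KO, and miR-194-5p (-0.95, adjusted p = 0.0147) and miR-192-5p (-1.13, adjusted p = 0.0392) were lower. The median of the list was -0.17 on the log2 scale. The summed level of the epithelial list was 19957 to 31020 CPM in WT and 11908 to 17835 CPM in KO. miR-192-5p weighs most in this sum: over the 36 libraries it reached 26676 CPM, and the next highest, miR-200b-3p, reached 3662 CPM. The 2 endothelial miRNAs were not called, with sums of 15570 to 23723 CPM in WT and 10549 to 15597 CPM in KO. In Pkd1 at P7, 0 of 7 epithelial and 0 of 2 endothelial miRNAs were called, and the epithelial sum was 19098 to 32134 CPM in WT and 14624 to 16935 CPM in KO. No erythroid, leukocyte, muscle or liver miRNA of the lists was called at P7 in either model, although the erythroid sum in Pkd2 was 2211 to 2680 CPM in WT and 3447 to 5535 CPM in KO. The part of these changes in the values of the members was not tested. Nor was it tested whether the mesenchyme-linked miRNAs that were called differ from the members by more than the error of both. In whole kidney, fewer cells of a type and less miRNA per cell cannot be told apart.

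With age, between P1 and P7, the log2 fold changes of miR-199a-5p were above 0 in both genotypes of both models, though all 4 turned below 0 with library totals alone, and those of miR-214-3p were below 0 in all 4. The test was passed by 1 of the values of miR-199a-5p and 2 of those of miR-214-3p. For miR-199a-5p in Pkd1 KO kidneys, the libraries measured 1000, 915 and 947 CPM at P1 and 1640, 1497 and 1594 CPM at P7. All P7 libraries lay above all P1 libraries, and the log2 fold change of 0.83 (SE 0.20, interval 0.40 to 1.25) passed the test with an adjusted p of 0.0124. It was the only member called there, among 17.1% of all miRNAs called and 10.1% called as higher. The call depended on scaling. With library totals alone the value was -0.33, where the median of all miRNAs was -1.16 (log2) against -0.05 with TMM. The call was lost without P1 replicate 2 or without P7 replicate 1 (adjusted p = 0.0565 and 0.0569).

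miR-199b-5p followed the same course in Pkd1 KO, from 126, 118 and 138 CPM at P1 to 202, 184 and 219 CPM at P7, again without overlap. Its log2 fold change of 0.77 (SE 0.26) had an adjusted p of 0.0525 and was not called. These 2 were the only members without overlap in this comparison, where 47.2% of all miRNAs had none.

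In Pkd1 WT kidneys 0 of 5 members passed, against 21.5% of all miRNAs. In all, 3 members had an unadjusted edgeR p under 0.05, as did 256 of the 706 miRNAs tested. These 3 members also had no overlap between ages (33.3% of all miRNAs). miR-199b-5p measured 149, 126 and 114 CPM at P1 and 223, 218 and 156 CPM at P7 (log2 fold change 0.72, SE 0.26, adjusted p = 0.0581). miR-199a-5p measured 1052, 997 and 1103 CPM at P1 and 1617, 1466 and 1155 CPM at P7 (0.52, SE 0.20, adjusted p = 0.0706). miR-214-3p measured 344, 307 and 324 CPM at P1 and 206, 205 and 246 CPM at P7 (-0.48, SE 0.21, adjusted p = 0.112).

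In Pkd2 kidneys the member that changed was miR-214-3p, and it fell in both genotypes. In WT it measured 476, 468 and 472 CPM at P1 and 280, 331 and 362 CPM at P7, without overlap, for a log2 fold change of -0.62 (SE 0.20, interval -1.05 to -0.19, adjusted p = 0.0315). In KO it measured 411, 398 and 466 CPM at P1 and 333, 247 and 270 CPM at P7, without overlap, for a log2 fold change of -0.65 (SE 0.20, interval -1.08 to -0.22, adjusted p = 0.0294). Both values were below 0 under every scaling tried.

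These were 1 of 5 members each, read against 28.3% of all miRNAs called in WT (16.9% as lower) and 24.4% in KO (12.6% as lower). With 5 members, a count of 1 cannot be told from these shares. Groups did not overlap for 2 members in WT, where miR-199a-3p was the other (3879 to 4011 CPM at P1, 4074 to 5828 CPM at P7), and for 1 in KO, against 50.0% and 31.1% of all miRNAs. The WT call was lost on leaving out any one of 5 of the 6 libraries, all but P7 replicate 3, with adjusted p-values of 0.0667 to 0.121 and log2 fold changes of -0.62 to -0.52. One of these, P1 replicate 3, is the library with liver miRNAs, and without it the value was -0.62 with an adjusted p of 0.0786. The KO call was lost without P1 replicate 3, P7 replicate 2 or P7 replicate 3 (adjusted p = 0.0716 to 0.125). The difference of the WT change with age between the models was not called for any member (0.258% of all miRNAs), and for miR-214-3p it was -0.03 with an interval of -0.62 to 0.56.

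Marker miRNAs of several cell types moved over the same days. In Pkd2 WT, 6 of the 7 epithelial miRNAs were higher at P7, led by miR-194-5p (1.43 on the log2 scale), miR-192-5p (1.49) and miR-200a-3p (0.58). The summed level of all 7 went from 10077 to 12336 CPM at P1 to 19957 to 31020 CPM at P7. Both arms of the liver miRNA miR-122 were lower. Their sum was 11.3, 9.496 and 289 CPM at P1, the last in the library with liver miRNAs, and 0.999 to 2.96 CPM at P7. The endothelial miR-126a-3p was higher by 0.49 and the leukocyte miR-150-5p by 1.30. Of the mesenchyme-linked miRNAs 3 were higher and 3 lower, led by the imprinted-cluster miRNAs miR-409-3p (-2.15) and miR-127-3p (-1.49) and by the smooth muscle miRNA miR-145a-3p (1.08).

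In Pkd2 KO over the same ages, 5 of 7 epithelial miRNAs were higher, with miR-141-3p at 1.17, and so were 1 of 3 erythroid (miR-486a-5p, 0.79), 2 of 5 leukocyte (miR-150-5p, 1.18, and miR-155-5p, 1.02) and 5 of 16 mesenchyme-linked miRNAs, led by miR-21a-5p at 2.02. The epithelial sum went from 7337 to 9627 CPM up to 11908 to 17835 CPM, and the mesenchyme-linked sum from 32512 to 40764 CPM up to 57526 to 95720 CPM. In Pkd1 KO, 7 of 16 mesenchyme-linked miRNAs were higher and 0 lower, led by miR-21a-5p at 2.32 and miR-145a-3p at 1.15. Also higher were 1 of 7 epithelial (miR-194-5p, 0.92) and 2 of 5 leukocyte miRNAs (miR-142a-3p, 1.59, and miR-223-3p, 0.95). The sum of all 16 mesenchyme-linked miRNAs went from 55388 to 63612 CPM up to 78962 to 113674 CPM. The most abundant of them, miR-143-3p (19151 to 97054 CPM over the 36 libraries), was not called in Pkd1 KO (0.52, adjusted p = 0.256) or Pkd2 KO (0.91, adjusted p = 0.0573). The median of the mesenchyme-linked list was 0.70 in Pkd1 KO and 0.79 in Pkd2 KO, against -0.05 and -0.07 for all miRNAs tested. No epithelial, endothelial, leukocyte, erythroid or mesenchyme-linked marker was at 0 in any library, while the muscle miRNA miR-206-3p was at 0 in 5 libraries and the liver miRNA miR-122-3p in 4. Muscle markers were not called in any of these 3 comparisons, and in Pkd1 WT, where no member passed, 4 of 4 were lower at P7, with the high P1 library among them. The part of these changes in the levels of miR-199 and miR-214 was not tested.

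Ratios of members within a library need no scaling, and they were tested over both models together. In WT kidneys the ratio of miR-199a-3p to miR-214-3p, whose hairpins share Dnm3os, was 12.5, 9.74 and 9.76 at P1 and 18.6, 16.4 and 22.1 at P7 in Pkd1. In Pkd2 it was 8.43, 8.28 and 8.42 at P1 and 14.6, 17.6 and 14.2 at P7. Every P7 library lay above every P1 library in both models, and the mean difference was 0.86 on the log2 scale (0.84 in Pkd1 and 0.88 in Pkd2). The exact permutation test within models (two-sided, 400 arrangements) gave p = 0.005, the smallest it can give, and an adjusted p of 0.0167 over the 10 ratio tests. miR-199a-3p is also made from hairpins on chromosomes 9 and 2, so this ratio is not that of one transcript.

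The ratio of miR-199a-5p to miR-214-3p rose likewise, by 0.91 on the log2 scale. In Pkd1 WT it was 3.06, 3.25 and 3.41 at P1 and 7.84, 7.16 and 4.70 at P7, and in Pkd2 WT 2.04, 1.75 and 2.10 at P1 and 4.53, 3.52 and 2.64 at P7. The ages did not overlap within either model, and the exact test again gave p = 0.005 (adjusted 0.0167).

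A ratio of arms of one hairpin changed too. miR-214-5p and miR-214-3p both come from Mir214, and in Pkd1 WT their ratio was 0.185, 0.140 and 0.133 at P1 and 0.211, 0.219 and 0.236 at P7. In Pkd2 WT it was 0.148, 0.142 and 0.166 at P1 and 0.197, 0.217 and 0.198 at P7. All 6 P7 libraries lay above all 6 P1 libraries, so the 5p arm held a larger share of the reads at the later age. The mean difference was 0.49 on the log2 scale (exact permutation p = 0.005, adjusted 0.0167). Without the P1 library with muscle miRNAs this difference was 0.56, and without the one with liver miRNAs 0.52. All 3 of these ratios have miR-214-3p as the denominator, so they are not independent results. Leaving out any one library kept all 3 past the threshold (largest adjusted p = 0.0333).

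In KO kidneys the corresponding changes from P1 to P7 were in the same direction, given here without a test. They were 0.34 in Pkd1 and 0.32 in Pkd2 for miR-199a-3p against miR-214-3p, 1.13 and 0.85 for miR-199a-5p against miR-214-3p, and 0.08 and 0.30 for miR-214-5p against miR-214-3p. Unlike in WT, the KO ages overlapped in Pkd1 for the first and the last of these ratios. The ratios of miR-199a-5p to miR-199a-3p and to miR-199b-5p did not pass the test in WT between P1 and P7, with mean log2 differences of 0.05 (exact permutation p = 0.82) and -0.13 (exact permutation p = 0.08).

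None of the 5 ratios passed the test between KO and WT at P7. The nearest was miR-199a-3p against miR-214-3p, lower in KO by a mean log2 difference of -0.23, with -0.17 in Pkd1 and -0.30 in Pkd2 (exact permutation p = 0.05, adjusted 0.125). In Pkd2 the 3 KO libraries, at 13.7, 12.2 and 11.7, lay below the 3 WT libraries, and in Pkd1 the KO libraries, at 18.4, 14.4 and 17.8, overlapped with WT. The arms of miR-214 did not overlap in Pkd1 at P7, with 0.192, 0.169 and 0.203 in KO below the 0.211 to 0.236 of WT, while in Pkd2 the means differed by 0.03 in the other direction (exact permutation p = 0.13, adjusted 0.217, for the mean over models).

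**Figure D3:**
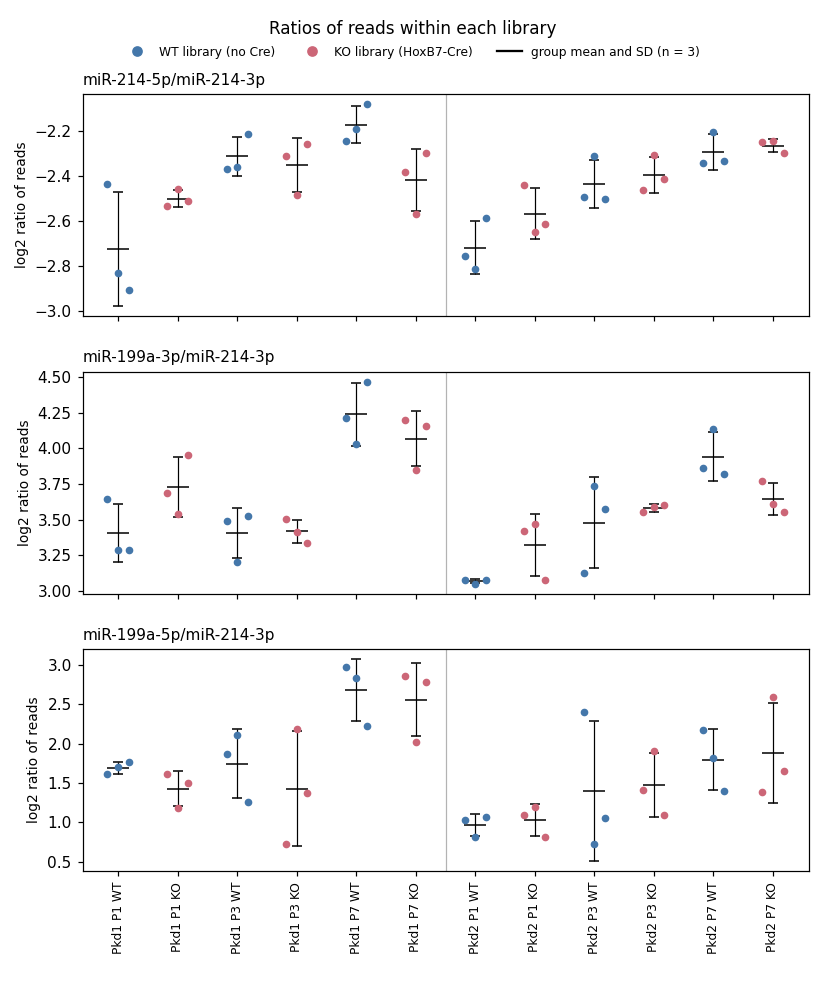
Log2 ratio of reads of 2 members within each library, by group; each point is 1 library (WT blue, KO red) with group mean and SD (n = 3) in black. In WT the P7 points of the upper 2 panels lie above all P1 points of both models, and in the lowest panel they do so within each model.

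The 5 miRNAs did not vary together as one block from library to library. Their log2 CPM values fell into a pair of sets: miR-199a-5p with miR-199b-5p, and miR-199a-3p with both arms of miR-214. Over 36 libraries miR-199a-5p and miR-199b-5p had r = 0.904 and rho = 0.850, and miR-214-3p and miR-214-5p had r = 0.855 and rho = 0.877. Both had a permutation p of 1e-05, the smallest that 100000 resamples can give, and an adjusted p of 3e-05 over 10 pairs. All 36 libraries were permuted without regard to group, so these p-values also take in differences between groups. Without the 2 libraries farthest from the median, r was 0.889 and 0.829. Whether miR-199a-5p and miR-199b-5p share reads was not checked. Between the sets the correlations were negative: miR-199a-5p and miR-214-3p had r = -0.660 and rho = -0.607 (permutation p = 2e-05 and 0.0002), and r = -0.636 without the 2 farthest libraries.

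The 5p and 3p miRNAs of miR-199a also lay in different sets, though reads of miR-199a-3p can also come from Mir199b. miR-199a-5p and miR-199a-3p had r = -0.360 over all libraries (permutation p = 0.0314) and rho = -0.272 (permutation p = 0.108), which was weak. Over all libraries miR-199a-3p had r = 0.458 with miR-214-3p and 0.644 with miR-214-5p. With the mean of each of the 12 groups removed these were 0.841 and 0.884, and miR-199a-5p with miR-199a-3p had -0.697. The opposition between the sets thus ran between replicates of the same age, model and genotype. All points share the TMM scaling of their library, so these values are not independent of it.

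**Figure D4:**
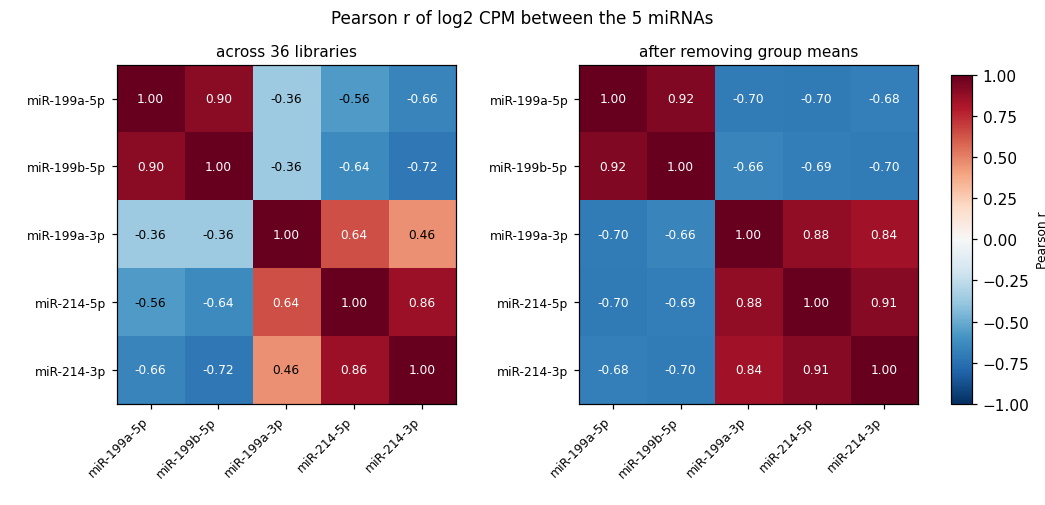
Pearson r of log2 CPM between the members over 36 libraries (left) and after subtracting the mean of each of the 12 groups (right), on a colour scale from -1 (blue) to 1 (red). The 5p miRNAs of the miR-199 family form one positive block, miR-199a-3p and the arms of miR-214 another, and the values between the blocks are negative.

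The ratios that set one block against the other moved with the share of miR-10 in the library. The log2 ratio of miR-199a-5p to miR-199a-3p rose with that share, with r = 0.840 and rho = 0.826 over 36 libraries (permutation p = 1e-05 for each, adjusted 2e-05 over 5 ratios), and r = 0.815 without the 2 libraries farthest from the median share. The value was 0.784 within Pkd1, 0.923 within Pkd2, 0.623, 0.907 and 0.943 at P1, P3 and P7, and 0.918 with group means removed. For miR-199a-5p against miR-214-3p, r was 0.880 and rho 0.874 (permutation p = 1e-05 for each, adjusted 2e-05), r was 0.859 without the 2 farthest libraries, and 0.934 with group means removed.

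The Pkd2 P3 WT libraries show the size of this spread. With miR-10 shares of 71.9%, 37.0% and 38.5%, the ratio of miR-199a-5p to miR-199a-3p was 0.609, 0.124 and 0.175, so 1 group held both the highest and the lowest ratio of all 36 libraries. Within that group miR-199a-5p measured 1640, 787 and 949 CPM and miR-199a-3p 2694, 6357 and 5425 CPM, in opposite order.

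The ratios within a block had smaller coefficients, and these differences in size were not tested. For miR-214-5p against miR-214-3p, r with the miR-10 share was -0.025 and rho -0.008 (permutation p = 0.882 and 0.962). With group means removed, r for these arms was -0.356. For miR-199a-3p against miR-214-3p, r was 0.316 and rho 0.291 (permutation p = 0.0611 and 0.0843), and the value turned to -0.380 with group means removed. For miR-199a-5p against miR-199b-5p, r was -0.341 and rho -0.424 (permutation p = 0.0415 and 0.0111, adjusted 0.0691 and 0.0185). Its r was -0.213 without the 2 farthest libraries and -0.445 with group means removed.

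The share itself differed between the groups that were compared: in WT it was 62.9% to 75.1% at P1 and 57.9% to 81.0% at P7 in Pkd1, and 44.3% to 49.7% and 42.8% to 66.4% in Pkd2. In Pkd1 KO it was 57.3% to 61.8% at P1 and 67.9% to 79.0% at P7, without overlap, in the comparison in which miR-199a-5p was called. With the share as a covariate, an alternative chosen after seeing the data, miR-199a-5p stayed called there, at 0.60 on the log2 scale (adjusted p = 0.0036), and miR-214-3p stayed called in Pkd2 WT (-0.52, adjusted p = 0.00172) and Pkd2 KO (-0.43, adjusted p = 0.0111). Adjusted for the share by its slope within groups, the 3 ratios that rose with age in WT differed by 0.88 (miR-199a-3p to miR-214-3p), 0.75 (miR-199a-5p to miR-214-3p) and 0.50 (arms of miR-214) on the log2 scale, each with an exact permutation p that gave 0.0167 after adjustment. KO against WT still gave 0 calls among the members.

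**Figure D5:**
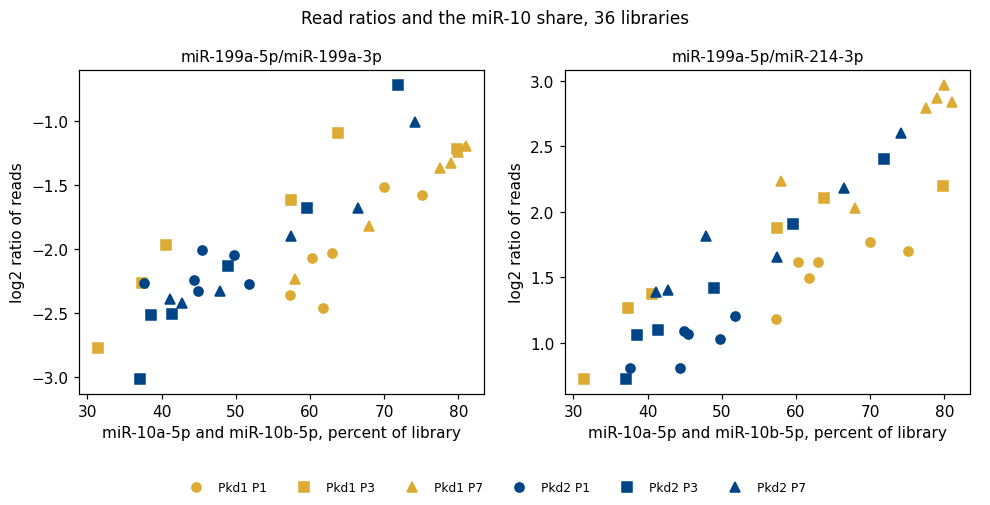
Log2 ratio of reads of miR-199a-5p to miR-199a-3p (left) and to miR-214-3p (right) against the percent of the library taken by miR-10a-5p and miR-10b-5p; each of the 36 points is 1 library, coloured by model and shaped by age, with WT and KO together. Both ratios climb from low values near a share of 31.4% to high values near 81.0% (r = 0.840 and 0.880).

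Among 318 miRNAs with a mean of at least 10 CPM, those whose log2 CPM was most like the mean of the 5 members were miR-196b-3p (r = 0.602), miR-196a-2-3p (r = 0.573), miR-872-5p (r = 0.520), miR-708-5p (r = 0.474) and miR-151-5p (r = 0.465), against a median r of 0.0266. With group means removed they had 0.591, 0.334, 0.401, 0.519 and 0.406. These values are modest. The mean runs over members that oppose each other, and the part of this in the values was not tested. A search for each member apart, added after these values were seen, gave closer matches. For miR-199a-5p they began with miR-125b-5p (r = 0.871), miR-301a-3p (r = 0.861) and miR-10a-5p itself (r = 0.847). For miR-199a-3p they began with miR-101b-3p (r = 0.818), miR-106b-5p (r = 0.785) and miR-25-3p (r = 0.726), and for miR-214-3p with miR-5099 (r = 0.835), miR-130b-3p (r = 0.834) and miR-615-3p (r = 0.834), while miR-10b-5p was the least like of all 318 (r = -0.875). These correlations describe 36 libraries that share their scaling and depth, and they carry no test because the miRNAs were chosen by them.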

How the data were processed

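Total RNA of whole kidney was extracted with TRIzol and small-RNA libraries were sequenced on a HiSeq2000. The authors trimmed the 3′ adaptor, discarded reads of up to 17 bases and ran miRDeep2 with miRBase 21 on mm10 for quantification. The submitters' processing notes also name CASAVA 1.8.2 and HTSeq. The authors deposited raw counts for each mature miRNA and precursor, and these were used as they stood. Where a mature miRNA had several precursor entries, the one with the highest total was used.

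Counts were fitted by edgeR 4.0.16 (R 4.3.3; TMM scaling, quasi-likelihood F-test) for each model over its 18 libraries, after a filter on low counts (10 or more in 3 or more libraries), which left 706 miRNAs in Pkd1 and 746 in Pkd2, and over all 36 libraries (775) for differences between models. P-values were adjusted by Benjamini-Hochberg over all miRNAs tested. Ratios were log2 of counts plus 0.5, tested by exact permutation of libraries within model. Correlations used 100000 permutations of the 36 libraries without regard to group, and values with group means removed were not tested. Intervals are at the 95% level. Replicate pairs all differed beyond counting error (36 pairs, smallest chi-square per degree of freedom 33.3). The fit was tested on simulated counts. Of 18 WT and KO pairs of libraries with the same replicate number, the deviations from group means correlated above 0.1 in 7, so the numbers were not taken as pairing.

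The 5 members and the marker lists were chosen with earlier results of these data known. The members are always named. Marker miRNAs are named where a member passed in the same comparison, up to 3 a list by adjusted p, with exceptions stated. Alternatives were other scalings, filters, fits, precursor sums, thresholds, DESeq2 1.42.0, a replicate block, leaving out each library, and the miR-10 share as a covariate.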

Additional observations from a re-analysis of the deposited data

How the results depend on the processing

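Comparisons of KO with WT, and all differences between ages or models of the KO effect, gave 0 members called under every alternative run. The calls with age were less stable. In Pkd1 WT from P1 to P7 (0 called as reported), 1 member was called with library totals without miR-10 and 3 with the share of miR-10 added as covariate. In Pkd1 KO (1 called), 2 were called with at least 100 counts in 3 libraries, with only the compared groups in the fit and with DESeq2, where miR-199b-5p joined miR-199a-5p, and 0 with library totals alone or with a 2-fold change and unadjusted p under 0.05. In Pkd2 WT (1 called), 2 were called with totals without miR-10 or the covariate, and 0 with totals alone, no filter or the 2-fold criterion. In Pkd2 KO (1 called), 3 were called with totals alone or totals without miR-10, and 0 with no filter, only the compared groups or the 2-fold criterion. Leaving out 1 library gave 0 to 1 in Pkd1 KO, Pkd2 WT and Pkd2 KO. Fewer libraries or more low miRNAs are part of these alternatives, and beyond that the cause was not tested.

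With library totals alone, the median log2 fold change of all miRNAs from P1 to P7 was -0.68 and -1.16 in Pkd1 WT and KO. In Pkd2 WT and KO it was -0.78 and -0.97. The medians with TMM were -0.03, -0.05, -0.06 and -0.07 in the same order. Under totals alone, values with age turned for miR-199a-5p (-0.22 in Pkd1 WT, -0.33 in Pkd1 KO, -0.53 in Pkd2 WT and -0.82 in Pkd2 KO) and for miR-199b-5p (-0.0591 in Pkd1 WT and -0.39 in Pkd1 KO). The value of miR-199a-5p in Pkd2 KO, 0.25 with TMM, was then called as lower (edgeR adjusted p = 0.0163). Counting called and uncalled values together, the sign changed in 23 of 80 cases under totals alone and 23 of 80 under totals without miR-10. It changed in 5 of 80 with the size factors of DESeq2 and 81 of 660 on leaving out 1 library.

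Of the ratios in WT from P1 to P7, miR-199a-5p to miR-199a-3p turned to -0.13 when adjusted for the miR-10 share, and ran from -0.0618 to 0.223 on leaving out 1 library. Between KO and WT at P7, leaving out 1 library gave -0.29 to -0.18 for miR-199a-3p to miR-214-3p, past the threshold without Pkd1 P7 WT replicate 2 (adjusted p = 0.025), and -0.20 to 0.12 for miR-199a-5p to miR-214-3p.

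Samples of the same replicate number did not deviate together (r from -0.489 to 0.456; 5 libraries correlated best with their own number). With a replicate block, the counts of members called were 0 in Pkd1 WT and 1 each in Pkd1 KO, Pkd2 WT and Pkd2 KO with age, as without it, and 0 elsewhere. For the ratios, an exact sign-flip permutation test of 6 numbered pairs cannot give less than p = 0.0312, and the WT changes with age of 0.49 (arms of miR-214), 0.86 (miR-199a-3p to miR-214-3p) and 0.91 (miR-199a-5p to miR-214-3p) reached that, which is 0.0781 after adjustment.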

Other observations

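At P1, the ratio of miR-199a-5p to miR-199a-3p was lower in KO than in WT without overlap in both models, a comparison for which no test was planned. In Pkd1 the ratio was 0.245, 0.334 and 0.349 in WT and 0.238, 0.195 and 0.182 in KO, a mean log2 difference of -0.59. In Pkd2 it was 0.242, 0.212 and 0.249 in WT and 0.199, 0.207 and 0.208 in KO, a mean log2 difference of -0.19. The miR-10 share, with which this ratio moved over all libraries, was 62.9% to 75.1% in WT and 57.3% to 61.8% in KO in Pkd1, and 44.3% to 49.7% and 37.6% to 51.8% in Pkd2. At P3 the groups overlapped in both models, with mean log2 differences of -0.33 and -0.03.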
